A study of Mus musculus with 20 samples.

Results

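The genes described here are Lpl and 5 receptors that take up lipid or lipoproteins, Vldlr, Lrp1, Cd36, Scarb1 and Msr1, in mouse bone marrow-derived macrophages. They are 6 of the 46318 genes in the files, and all 6 were among the 13307 with enough counts to be tested. The receptors were listed for their function. Lpl was chosen by its own CPM values here, because DSHN and GW3965 moved it in opposite directions, so its values are a description and carry no test.

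The macrophages were grown from the marrow of C57BL/6 female mice with recombinant M-DSF (spelled as in the labels) at 20 ng/mL and seeded at 700000 cells per well. They were then kept for 24 h with both compounds (labelled DSHN+GW3965, called the combination here), with GW3965 at 1 µM, with DSHN at 50 µM, or with DMSO, the solvent. The combination used the same doses. Each group had 5 replicates that the labels call biological, giving 20 libraries. Per the labels, GW3965 activates LXR, the oxysterol receptor, and DSHN activates NR0B2, a nuclear receptor that represses LXR, and the study asked how they act together. The labels do not say whether replicate cultures came from separate mice, so p-values measure the spread between these cultures.

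Lipoprotein lipase, the product of Lpl, is secreted and splits the triglycerides of chylomicrons and VLDL, which frees fatty acids for uptake. Receptors of the LDL receptor family take in whole lipoprotein particles by endocytosis. Scavenger receptors bind modified LDL without sterol feedback, a route by which macrophages turn into foam cells. LXR senses the sterols that arrive this way.

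Library totals were 16855029 to 23796561 counts. All 8 macrophage markers on a fixed list exceeded 1 CPM in each group, and of 5 adipocyte markers none did, with Lep and Cidec at 0 counts in every library. In each group 3 of 5 fibroblast and stromal markers exceeded 1 CPM (summed 1735 to 2994 CPM). So did 3 of 4 endothelial markers (summed 5.87 to 10.79 CPM) and 1 of 4 mast cell and basophil markers. Of 6 dendritic cell markers 1 did in the combination only, and no neutrophil, B cell, T and NK cell or erythroid marker did. CPM is the read count scaled to a common library size, here with TMM factors. The combination libraries stood apart in one respect. Their log2 CPM sloped down with exon length, by -0.124 to -0.0943 per doubling of length, against 0.0263 to 0.046 with GW3965, 0.0057 to 0.063 with DSHN and 0.0316 to 0.0629 with DMSO. A correction for exon length was therefore run, and changes in the combination are given with it where it ended a call, turned a direction or moved a value much. Exon lengths were 15084 bases for Lrp1, 12727 for Vldlr, 8539 for Msr1, 4137 for Scarb1, 4057 for Cd36 and 4049 for Lpl.

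The 6 genes covered a wide range of levels. Set per exon length as TPM, a unit that allows genes to be compared, Lpl averaged 3694 ± 225.3 TPM in the combination and 3652 ± 96.98 TPM in DMSO (SD, n = 5 each), which ranked it 17 and 19 among the tested genes. Cd36 followed with 1814 ± 53.46 TPM in the combination and 2493 ± 144.7 TPM in DMSO. The DMSO means of the others were 411.2 TPM for Lrp1, 316.9 for Msr1, 60.17 for Scarb1 and 2.41 for Vldlr. The order of the top 2 changed with DSHN. The ratio of Lpl to Cd36 in TPM was 1.90 to 2.19 in the combination, 1.69 to 2.10 with GW3965, 0.822 to 0.981 with DSHN and 1.37 to 1.57 in DMSO. Lpl was thus below Cd36 in all 5 DSHN libraries and above it in the other 15.

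Lpl (GeneID 16956, GRCm39 chromosome 8, 69333207 to 69359584, plus strand, 10 merged exons) had its lowest levels with DSHN alone. In the combination its CPM in replicates 1 to 5 was 5668, 6017, 5897, 6396 and 6318. The GW3965 libraries had 6233, 6260, 6421, 6985 and 7051 CPM. Those with DSHN had 2990, 2631, 2715, 2629 and 2712 CPM, against 5087, 5321, 5561, 5313 and 5405 CPM in DMSO. The DSHN libraries lay below all others, and the DMSO range lay below both groups that received GW3965, whose own ranges overlapped.

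On the log2 scale Lpl differed by -0.96 (SE 0.04) between DSHN and DMSO, a level 1.95-fold lower, and by 0.30 (SE 0.04) between GW3965 and DMSO, a level 1.23-fold as high. These 2 values chose the gene. When GW3965 was present, DSHN went with a much smaller difference, since the combination stood at -0.12 (SE 0.04) relative to GW3965. The DSHN difference with GW3965 minus that without, called the interaction here, was 0.84 (SE 0.06). The changes with each compound alone add to -0.66, whereas the combination had 0.18 (SE 0.04) relative to DMSO. Against DSHN alone, the combination had 1.15 (SE 0.04), a level 2.21-fold as high. With the length correction these values were -0.95, 0.33, -0.07, 0.88, 0.25 and 1.20 in the same order of comparisons. In bulk RNA, fewer cells of a type and less RNA per cell cannot be told apart. The summed macrophage markers were 17840 to 19190 CPM with DSHN and 15960 to 17210 CPM in DMSO. Lyz2 gave most of this sum, with means of 12000 CPM with DSHN and 10250 in DMSO. Adgre1, Csf1r, Cd68 and Mertk also had a higher mean with DSHN, and Itgam, Fcgr1 and Cd14 a lower one. The part of these markers in the Lpl difference was not tested.

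**Figure D1:**
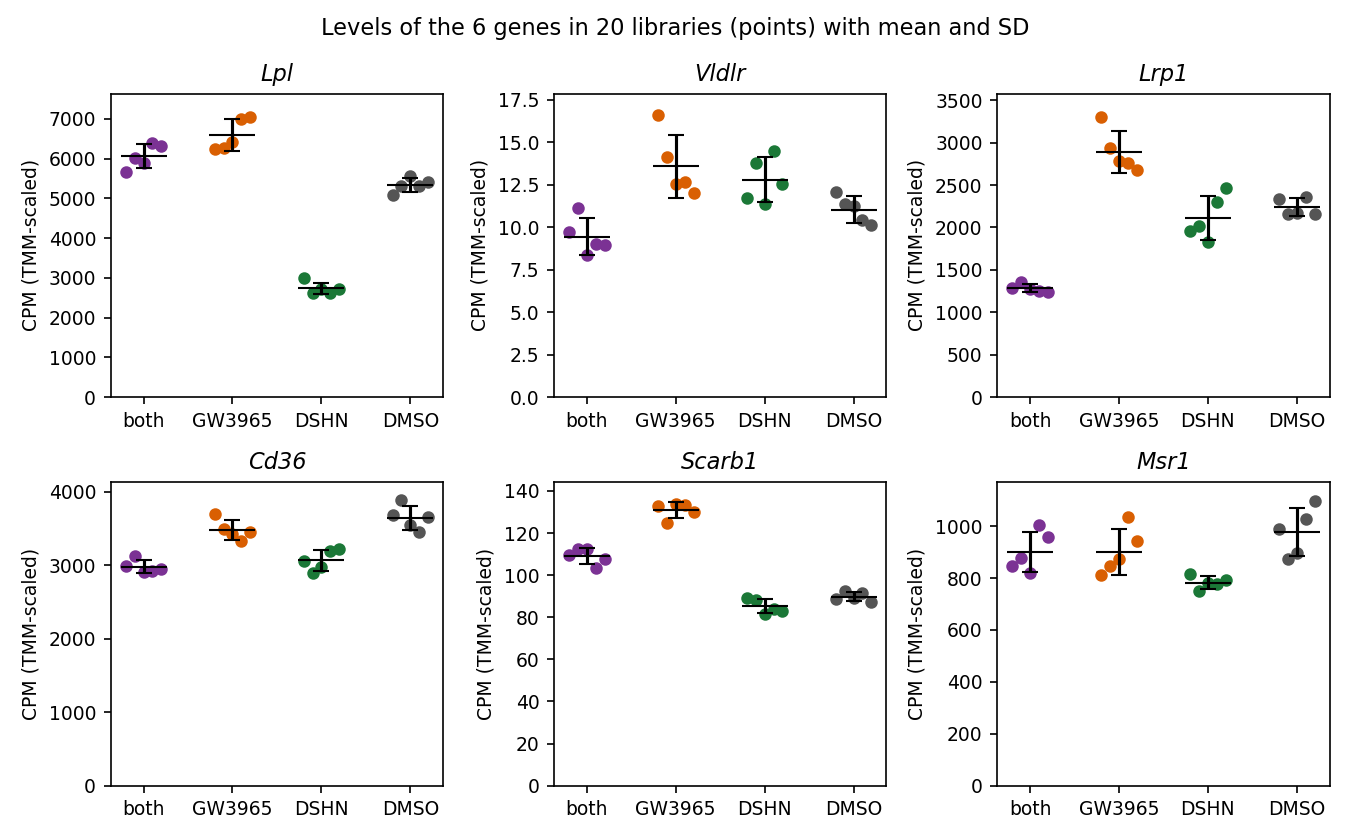
Level of each gene in CPM (vertical axes, linear from 0) in the 20 libraries, by treatment (horizontal axes; "both" is the combination), with bars for the mean and SD of 5 libraries. Lpl is lowest with DSHN alone (2629 to 2990 CPM), Lrp1 is lowest with both compounds (1242 to 1362 CPM), and Scarb1 is highest with GW3965 (124.6 to 133.6 CPM).

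Folr2, a folate receptor of macrophages, had the pattern most like that of Lpl, by Pearson's r of log2 CPM over the 20 libraries, which share the 4 treatments (r = 0.93 among the 9819 genes that averaged 5 CPM or more). It averaged 270.4 CPM in the combination, 257 with GW3965, 189.9 with DSHN and 270.4 in DMSO. The next were Atf3, a stress-induced transcription factor (0.91), Rgs2, an inhibitor of G protein signalling (0.90), B4galt6, a glycosphingolipid synthase (0.90), and Evl, an actin regulator (0.89). All 5 had their lowest mean with DSHN, but their DSHN levels were nearer to those of DMSO than was the case for Lpl. Among the receptors, Scarb1 had the highest r with Lpl over the 20 libraries, 0.76, which was 0.03 after the group means were removed. For Msr1 these values were 0.64 and 0.61, and after the group means were removed Vldlr had -0.56 and Lrp1 -0.49.

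Proteins that lipoprotein lipase needs or that restrain it were part of the list of 88 other genes of this pathway. Of these, 68 were tested. Gpihbp1, which anchors the lipase to capillary endothelium, had 0 to 2 counts in any library, and Apoc2, which encodes its activator, had 0 to 13, so neither was tested. Lmf1, a factor the lipase needs to mature, averaged 19.77 CPM in the combination, 19.55 with GW3965, 17.15 with DSHN and 15.75 in DMSO. By edgeR's quasi-likelihood test with Benjamini-Hochberg adjustment, it was higher with GW3965 than in DMSO by 0.31 (SE 0.06, adjusted p = 0.000152). Angptl4, an inhibitor of the lipase, averaged 3.15 CPM in the combination, 3.21 with GW3965, 3.46 with DSHN and 4.67 in DMSO. It fell relative to DMSO with both compounds (-0.56, adjusted p = 0.000244), with GW3965 (-0.55, adjusted p = 0.000462) and with DSHN (-0.43, adjusted p = 0.00668) in the same test. With the length correction the value for both compounds was -0.74.

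Hspg2, which encodes perlecan, a heparan sulfate proteoglycan, had the largest change among the lipase genes that passed in the combination relative to GW3965. It averaged 46.7 ± 4.04 CPM in the combination, 134.6 ± 21.71 with GW3965, 128.7 ± 22.67 with DSHN and 124.3 ± 14.53 in DMSO (SD, n = 5 each). Relative to GW3965 it fell by 1.52 on the log2 scale (adjusted p = 1.87e-11 by edgeR's quasi-likelihood test), and -1.25 with the length correction. Sdc1, which encodes another such proteoglycan, syndecan-1, fell relative to DMSO in the combination (-0.46, adjusted p = 5.3e-09), with GW3965 (-0.40, adjusted p = 1.37e-07) and with DSHN (-0.34, adjusted p = 5.42e-06). Lipa, the lysosomal lipase that frees cholesterol from ingested lipoproteins, averaged 2013 CPM in the combination, 2343 with GW3965, 2425 with DSHN and 2212 in DMSO. It fell in the combination relative to GW3965 by 0.22 (SE 0.04, adjusted p = 4.33e-05).

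The 2 members of the LDL receptor family both had their lowest mean CPM in the combination. With the length correction Lrp1 was still lowest there, whereas Vldlr was 0.03 relative to DMSO on the log2 scale. Lrp1 encodes a large endocytic receptor for remnant lipoproteins, proteinase complexes and apoptotic cells, and Vldlr encodes a receptor for triglyceride-rich particles. The 250 bases before the annotated start are shown for Lrp1, Vldlr and Cd36, the 3 members with a window in the RefSeq set used. Lpl, Scarb1 and Msr1 had no window there. Capitals mark, on either strand, the nuclear receptor half-site AGGTCA, the GC box GGGCGG and the CCAAT box. Sequences are RefSeq's for build GRCm38.p6, each printed on the gene's own strand.
Lrp1, chr10:127621149-127621398, minus strand: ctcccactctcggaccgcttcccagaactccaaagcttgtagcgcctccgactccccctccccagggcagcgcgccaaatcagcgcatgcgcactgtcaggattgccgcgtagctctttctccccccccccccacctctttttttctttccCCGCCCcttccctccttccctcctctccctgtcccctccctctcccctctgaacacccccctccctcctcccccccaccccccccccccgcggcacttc
Vldlr, chr19:27216770-27217019, plus strand: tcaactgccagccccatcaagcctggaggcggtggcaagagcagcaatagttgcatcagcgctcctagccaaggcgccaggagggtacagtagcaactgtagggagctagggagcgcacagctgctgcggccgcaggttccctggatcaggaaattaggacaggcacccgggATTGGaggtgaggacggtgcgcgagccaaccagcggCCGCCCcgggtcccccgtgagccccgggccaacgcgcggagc
Cd36, chr5:17835897-17836146, minus strand: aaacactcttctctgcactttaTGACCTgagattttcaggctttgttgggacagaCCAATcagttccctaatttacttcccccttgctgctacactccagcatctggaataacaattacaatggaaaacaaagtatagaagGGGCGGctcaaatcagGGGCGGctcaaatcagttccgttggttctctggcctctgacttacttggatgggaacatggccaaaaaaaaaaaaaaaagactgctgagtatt
The half-site was present in the Cd36 window and in neither of the other 2. A further RefSeq window of Vldlr held none of the 3 motifs. Among all 32851 such windows 14.0% held the half-site, 32.7% the GC box and 33.8% the CCAAT box. A repeat of 2 half-sites with 4 bases between them, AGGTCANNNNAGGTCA, the kind of element that LXR with its partner RXR is known to bind, was in none of the 3 windows and in 0.0152% of all, or 5 windows. No binding was measured here.

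Lrp1 (GeneID 16971, GRCm39 chromosome 10, 127374026 to 127457158, minus strand, 90 merged exons) had 1292, 1362, 1269, 1251 and 1242 CPM in replicates 1 to 5 of the combination. The GW3965 libraries had 3305, 2934, 2787, 2757 and 2673 CPM. Those with DSHN had 1962, 2013, 1828, 2300 and 2463 CPM, against 2339, 2164, 2174, 2363 and 2154 CPM in DMSO. Each combination library lay below the other 15, each GW3965 library lay above the other 15, and DSHN and DMSO overlapped.

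Relative to GW3965, Lrp1 fell in the combination by 1.17 on the log2 scale (SE 0.06, adjusted p = 4.14e-13), a level 2.25-fold lower. It also fell in the combination relative to DSHN (-0.72, SE 0.06, adjusted p = 3.83e-10) and relative to DMSO (-0.80, SE 0.06, adjusted p = 2.22e-11). These and all further adjusted p-values of the receptors come from edgeR's quasi-likelihood test with Benjamini-Hochberg adjustment over 13307 genes. GW3965 alone went the other way, with a rise of 0.37 (SE 0.06, adjusted p = 2.24e-05). DSHN alone had -0.08 (95% interval -0.21 to 0.04, adjusted p = 0.338). The interaction was -1.09 (SE 0.09, adjusted p = 1.03e-09), opposite in sign to that of Lpl.

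Lrp1 is a long gene, and 1281 tested genes with at least 10000 exon bases had a median of -0.27 in the combination relative to GW3965. Of these, 26 had a lower value than Lrp1. With the length correction their median was -0.02, and Lrp1 still fell by 0.90 relative to GW3965, by 0.47 relative to DSHN and by 0.55 relative to DMSO, with an interaction of -0.82. All of these passed the test. The summed markers of fibroblasts and stroma also had their lowest range in the combination. The sums with GW3965 overlapped those with DSHN and in DMSO. They were 1735 to 2107 CPM in the combination, 2304 to 2994 with GW3965, 2177 to 2769 with DSHN and 2045 to 2594 in DMSO. Col1a1 and Col1a2 gave nearly all of this sum, while Pdgfra averaged 4.13 to 5.56 CPM by group, and Dcn and Lum, the other 2 markers on that list, had at most 14 and 4 counts. Their part in the Lrp1 result was not tested. Reads were counted without regard to strand, and 431 bases (2.86%) of the Lrp1 exons overlap Gm16217 on the other strand.

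The genes most like Lrp1 over the 20 libraries were Ubr4 (r = 0.98), a ubiquitin ligase gene with 15873 exon bases, Pank3 (0.98), which encodes a kinase of coenzyme A synthesis, and Wdfy4 (0.97), which is known for antigen cross-presentation. Ubr4 averaged 200.6 CPM in the combination, 404 with GW3965, 334.4 with DSHN and 330.7 in DMSO. Vldlr had r = 0.81 with Lrp1, and 0.65 after the group means were removed. Both genes are long and no r used the length correction, so a part of exon length in these values was not tested.

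Vldlr (GeneID 22359, GRCm39 chromosome 19, 27190070 to 27231631, plus strand) was the rarest of the 6 transcripts, with 156 to 296 counts per library. The combination libraries had 9.74, 11.16, 8.37, 9.02 and 8.98 CPM. The GW3965 libraries had 16.61, 14.12, 12.57, 12.69 and 12.02 CPM. Those with DSHN had 11.73, 13.78, 11.38, 14.48 and 12.56 CPM, against 12.06, 11.35, 11.25, 10.42 and 10.13 CPM in DMSO. The combination lay below both single-compound groups and overlapped with DMSO.

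Vldlr fell in the combination relative to GW3965 by 0.52 (SE 0.09, adjusted p = 2.54e-05) and relative to DSHN by 0.43 (SE 0.09, adjusted p = 0.00027), and it rose with GW3965 relative to DMSO by 0.29 (SE 0.09, adjusted p = 0.00796). With DSHN it had 0.20 (95% interval 0.02 to 0.38, adjusted p = 0.091). The interaction was -0.72 (SE 0.13, adjusted p = 4.13e-05). With the correction, the fall relative to GW3965 was 0.25 (adjusted p = 0.0261), the value relative to DSHN was -0.17 (adjusted p = 0.119), and the interaction was -0.45 (adjusted p = 0.00427). Relative to DMSO the combination had -0.23 (SE 0.09, adjusted p = 0.0358) as fitted and 0.03 (adjusted p = 0.767) with the correction. That call was also lost without DMSO replicate 1, 2 or 3 and without combination replicate 3, 4 or 5, with values of -0.22 to -0.19 and adjusted p up to 0.104. Part of the exons, 862 bases (6.77%), overlaps Gm35438 on the other strand.

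**Figure D2:**
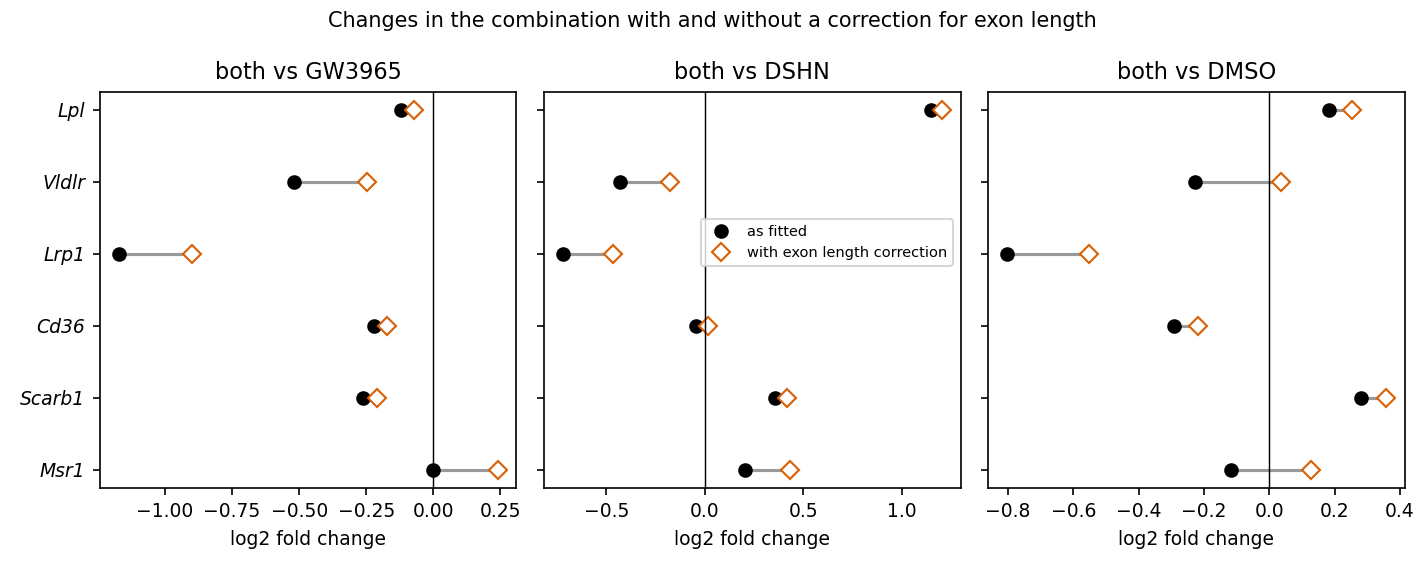
Log2 fold change of each gene (rows) in the combination relative to GW3965, DSHN and DMSO, as fitted (filled circles) and with a correction for exon length (open diamonds). Lrp1 stays at or below -0.47 in all 3 panels, whereas Vldlr and Msr1 cross 0 relative to DMSO.

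Other receptors of the family are set beside these 2. Of 18 tested genes of LDL receptor relatives and adaptors, 1 was higher and 10 were lower in the combination than with GW3965 (median -0.19), where 57.8% of all 13307 genes passed in either direction. Mylip, whose product marks VLDLR and LRP8 for degradation, averaged 164.6 CPM in the combination, 195.8 with GW3965, 47.79 with DSHN and 33.09 in DMSO. It rose relative to DMSO with both compounds (2.31), with GW3965 (2.56) and with DSHN (0.53). The RNA of Lrp8 fell relative to DMSO in the same 3 groups, by 0.68, 0.83 and 0.50, and in the combination by 0.42 with the length correction. Receptor protein, on which the ligase acts, was not measured, and a link between Mylip and Lrp8 RNA was not tested. Lrp6, a Wnt co-receptor, averaged 160 CPM in the combination, 226 with GW3965, 223.8 with DSHN and 157.4 in DMSO, so that its interaction was negative (adjusted p = 8.99e-10 by edgeR's quasi-likelihood test). Dab2, which encodes an endocytic adaptor, averaged 850.1 CPM in the combination, 883.1 with GW3965, 1174 with DSHN and 1531 in DMSO. Relative to DMSO it fell with both compounds (-0.85, and -0.65 with the length correction), with GW3965 (-0.79) and with DSHN (-0.38).

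Cd36 (GeneID 12491, GRCm39 chromosome 5, 17986688 to 18093957, minus strand), which encodes the scavenger receptor that also takes up long-chain fatty acids, was lower in both groups that received DSHN. The combination libraries had 2992, 3129, 2916, 2925 and 2954 CPM, and the GW3965 libraries 3701, 3499, 3430, 3329 and 3449 CPM. Those with DSHN had 3053, 2891, 2983, 3202 and 3225 CPM, against 3692, 3888, 3549, 3459 and 3656 CPM in DMSO. Every library with DSHN, alone or combined, lay below every library without it.

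Relative to DMSO, Cd36 fell with DSHN by 0.25 (SE 0.04, adjusted p = 1.38e-05), a level 1.19-fold lower. With both compounds it fell by 0.22 relative to GW3965 (SE 0.04, adjusted p = 1.35e-05) and by 0.29 relative to DMSO (SE 0.04, adjusted p = 1.7e-07). GW3965 alone had -0.07 (95% interval -0.14 to 0.01, adjusted p = 0.143), which passed without GW3965 replicate 1 (-0.10, adjusted p = 0.0356). The interaction was 0.03 with a 95% interval of -0.08 to 0.13 (adjusted p = 0.715). The exon length correction ended no call of Cd36. A further correction that added genomic span, chosen after the data were seen, ended both calls of the combination, with -0.01 relative to GW3965 and -0.05 relative to DMSO, and gave an interaction of 0.21 that passed. The call with DSHN alone held there at -0.22. The genes most like Cd36 were Myo1e (r = 0.95), which encodes a myosin, Slc37a2 (0.94), a sugar phosphate transporter gene of macrophages, and Tmem26 (0.93).

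Scarb1 (GeneID 20778, GRCm39 chromosome 5, 125354151 to 125418158, minus strand), which encodes the HDL receptor SR-BI, rose with GW3965. The combination libraries had 109.5, 112.3, 112.3, 103.3 and 107.8 CPM, and the GW3965 libraries 133, 124.6, 133.6, 133.3 and 130.2 CPM. Those with DSHN had 89.18, 88.15, 81.76, 84.11 and 83.11 CPM, against 88.67, 92.62, 89.3, 91.32 and 87.27 CPM in DMSO. GW3965 lay above the combination, and the combination above DSHN and DMSO, which overlapped.

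Relative to DMSO, Scarb1 rose by 0.28 in the combination (SE 0.03, adjusted p = 6.91e-08) and by 0.54 with GW3965 (SE 0.03, adjusted p = 8.45e-13). The combination was higher than DSHN by 0.35 (SE 0.03, adjusted p = 2.27e-09) and lower than GW3965, by -0.26 (SE 0.03, adjusted p = 2.47e-07). DSHN alone had -0.08 (95% interval -0.15 to -0.005, adjusted p = 0.104), which passed without DSHN replicate 1 (-0.10, adjusted p = 0.0485). With the correction for length and span the combination had 0.45 relative to DMSO and -0.12 relative to GW3965 (adjusted p = 0.00511), and with exon length alone 0.36 and -0.21. The interaction, -0.19 (SE 0.05, adjusted p = 0.00197), was lost with scaling to total counts (-0.11, adjusted p = 0.0614) and with the correction for length and span (-0.06, adjusted p = 0.297). Acsl4 (r = 0.98), an acyl-CoA synthetase gene for arachidonate, and Rasgef1b (0.97) were among the 3 genes most like Scarb1 over the 20 libraries. Acsl4 averaged 281.6 CPM in the combination, 413.4 with GW3965, 173.3 with DSHN and 187.3 in DMSO.

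Msr1 (GeneID 20288, GRCm39 chromosome 8, 39996284 to 40095790, minus strand), which encodes scavenger receptor A, an acetylated LDL receptor, was lowest with DSHN alone. The combination libraries had 844.7, 878.6, 819.6, 1005 and 957 CPM, and the GW3965 libraries 810.1, 848.1, 873.7, 1034 and 943 CPM. Those with DSHN had 814.5, 750.7, 779.2, 775.3 and 794.3 CPM, against 987.5, 875, 896.4, 1029 and 1097 CPM in DMSO. The DSHN range lay below the ranges of the combination and of DMSO and met the lower end of the GW3965 range.

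Msr1 fell with DSHN relative to DMSO by 0.32 (SE 0.06, adjusted p = 0.000367), a level 1.25-fold lower. The combination was higher than DSHN by 0.20 (SE 0.06, adjusted p = 0.00765), by 0.44 with the length correction and by 0.50 with length and span. Its value relative to GW3965 was -0.0014 (95% interval -0.13 to 0.13, adjusted p = 0.987) as fitted and 0.24 (adjusted p = 0.00463) with the length correction. The interaction was 0.32 (SE 0.09, adjusted p = 0.00426) as fitted and 0.55 with the correction, the same sign as for Lpl. Relative to DMSO, GW3965 had -0.12 (95% interval -0.24 to 0.01, adjusted p = 0.138) and the combination -0.12 (95% interval -0.25 to 0.01, adjusted p = 0.106). Both passed without DMSO replicate 2 (-0.15 and -0.16), the first also without GW3965 replicate 4 (-0.18) and the second without combination replicate 4 (-0.16). Hsd17b7, an enzyme gene of cholesterol synthesis (r = 0.89), Dmpk, a kinase gene (0.88), and Eif4a-ps4 (0.87) were most like Msr1.

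**Figure D3:**
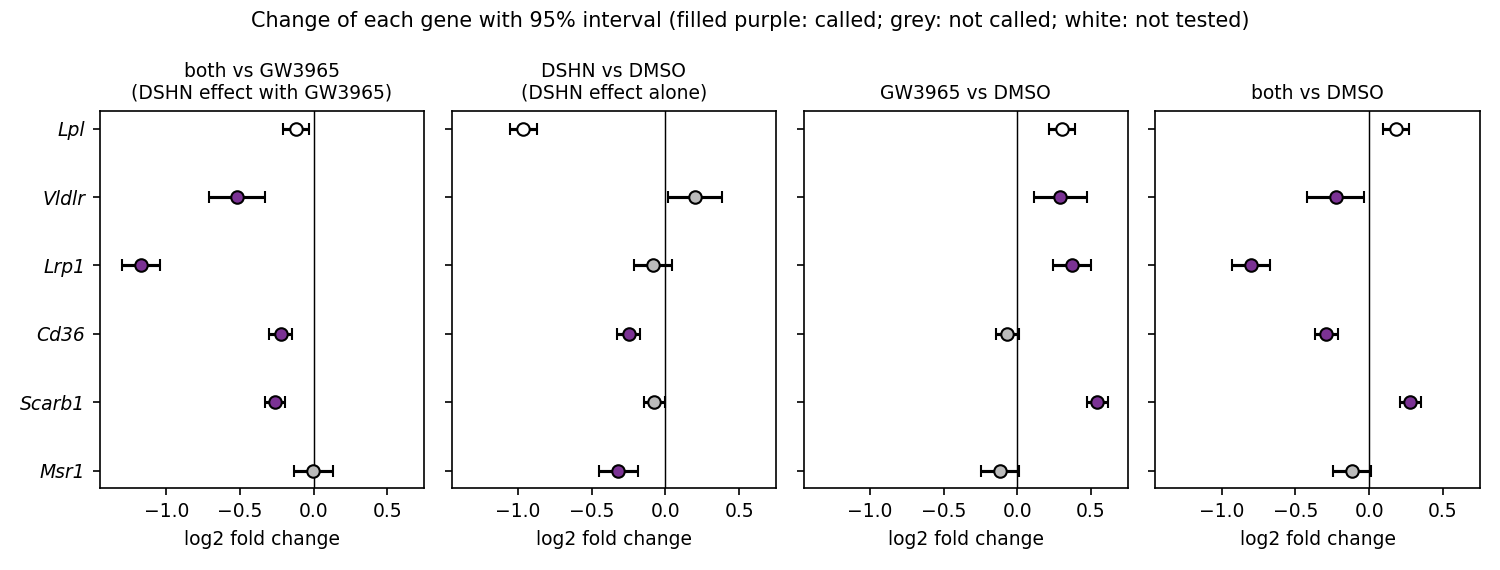
Log2 fold change with its 95% interval for each gene (rows) in 4 comparisons (panels), with filled purple points for changes that passed the test, grey points for those that did not and white points for Lpl, which was not tested. The Lpl intervals belong to its description and are not read as a test, since its DSHN and GW3965 values chose the gene. With GW3965 present, the DSHN difference is -0.12 for Lpl and -1.17 for Lrp1, and with DSHN alone it is -0.96 for Lpl and -0.08 for Lrp1.

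Counted together, 4 of the 5 tested receptors passed in the combination relative to GW3965, all lower, where 57.8% of all genes passed, 28.3% higher and 29.5% lower. Relative to DSHN 4 of 5 passed, 2 higher and 2 lower, where 58.1% of all genes passed, 28.6% higher and 29.5% lower. Relative to DMSO 4 of 5 passed in the combination, 1 higher and 3 lower, where 64.8% of all genes passed, 31.9% higher and 32.9% lower. With DSHN alone 2 of 5 passed, both lower, where 29.0% of all genes passed, 14.1% higher and 14.8% lower. With GW3965 alone 3 of 5 passed, all higher, where 46.5% of all genes passed, 23.6% higher and 23.0% lower. The interaction passed in 4 of 5, negative in 3 and positive in 1, where 50.2% of all genes passed, 23.7% positive and 26.5% negative. The 5 and 5 libraries of the combination did not overlap in 4 of the 5 receptors relative to GW3965 (42.4% of all genes), in 4 relative to DSHN (42.5%) and in 3 relative to DMSO (49.7%). They did not overlap in 2 of the 5 for DSHN relative to DMSO (18.6%) and in 2 for GW3965 relative to DMSO (32.1%). With 5 genes, these shares are not read as a result about the receptors as a group.

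Scavenger receptors beyond the members moved in both directions. Of 13 tested, 3 were higher and 6 lower in the combination than with GW3965 (median -0.20), 5 passed with DSHN relative to DMSO, all higher (median 0.02), and 7 were higher and 1 lower with GW3965 than in DMSO (median 0.25). Of all genes 57.8%, 29.0% and 46.5% passed in these 3 comparisons, in either direction. Marco, a class A scavenger receptor gene like Msr1, averaged 20.14 ± 4.50 CPM in the combination, 13.68 ± 1.88 with GW3965, 16.75 ± 1.53 with DSHN and 8.95 ± 1.33 in DMSO (SD, n = 5 each). Relative to DMSO it rose with DSHN by 0.90 (adjusted p = 4.94e-06 by edgeR's quasi-likelihood test), whereas Msr1 fell. Stab1, which encodes stabilin-1, a receptor for acetylated LDL, averaged 828 CPM in the combination, 1360 with GW3965, 1445 with DSHN and 1058 in DMSO, and its interaction was -1.17 (adjusted p = 9.92e-10, same test) and -0.95 with the length correction. Olr1, which encodes the oxidized LDL receptor LOX-1, had 0 to 8 counts and was not tested.

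Genes that carry fatty acids onward were counted next. Of 15 tested, 4 were higher and 6 lower in the combination than with GW3965 (median -0.05), 1 was higher and 4 lower with DSHN than in DMSO (median -0.07), and 4 were higher and 4 lower with GW3965 than in DMSO (median -0.04). The shares of all genes that passed were again 57.8%, 29.0% and 46.5%. Acsl3, an acyl-CoA synthetase gene tied to lipid droplets, rose relative to DMSO in the combination (1.41, SE 0.05) and with GW3965 (1.77, SE 0.05). Fabp5, a fatty acid binding protein gene of macrophages, averaged 308 CPM in the combination, 319.1 with GW3965, 185.9 with DSHN and 163.1 in DMSO. Its rise in the combination relative to DMSO was 0.92 as fitted and 0.56 with the length correction. Slc27a1, a fatty acid transporter gene, averaged 75.73 CPM in the combination, 56.14 with GW3965, 73.85 with DSHN and 74.48 in DMSO. It was lower with GW3965 alone than in DMSO (-0.41, adjusted p = 1.97e-09 by edgeR's quasi-likelihood test) and higher in the combination than with GW3965 (0.43, adjusted p = 5.85e-10). The latter value was 0.54 with the length correction. Fabp4, the adipocyte-type binding protein gene, was higher in the combination than with GW3965 by 0.56 as fitted and by 0.25 with the length correction. For Fabp7 these values were 0.70 and 0.36, and all 4 passed. Zdhhc5, whose product is known to palmitoylate CD36, averaged 93.13 CPM in the combination, 129.4 with GW3965, 136.4 with DSHN and 150 in DMSO. In the combination relative to DMSO it fell by 0.69 (adjusted p = 6.49e-13, same test), and the value was -0.57 with the length correction.

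Genes that handle sterols after uptake, 10 tested, had 2 higher and 4 lower in the combination than with GW3965 (median -0.18), 4 higher and 1 lower with DSHN than in DMSO (median 0.17), and with GW3965 relative to DMSO 7 passed, all higher (median 0.37), against the same 57.8%, 29.0% and 46.5% of all genes. Gramd1b, which encodes a sterol transfer protein, averaged 162 CPM in the combination, 266.2 with GW3965, 107.9 with DSHN and 106.4 in DMSO. It fell in the combination relative to GW3965 by 0.72 (adjusted p = 1.59e-11 by edgeR's quasi-likelihood test), and the value was -0.51 with the length correction.

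Over the whole list of 68 tested genes, 10 were higher and 31 lower in the combination than with GW3965 (60.3%, against 57.8% of all genes), with a median of -0.17 against 0.02 over all tested genes. Relative to DSHN 21 were higher and 27 lower (70.6%, against 58.1%), and relative to DMSO 21 were higher and 25 lower (67.6%, against 64.8%). With DSHN alone 15 were higher and 12 lower (39.7%, against 29.0%). With GW3965 alone 26 were higher and 11 lower (54.4%, against 46.5%). With scaling to total counts 22 were higher and 16 lower, where 47.1% of all genes passed. The interaction passed in 43, with 13 positive and 30 negative (63.2%, against 50.2%). With the length correction, 11 were higher and 30 lower in the combination relative to GW3965, where 47.3% of all genes passed. The corrected counts relative to DSHN were 19 higher and 19 lower (46.4% of all genes). Those relative to DMSO were 23 higher and 20 lower (58.4% of all genes).

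**Figure D4:**
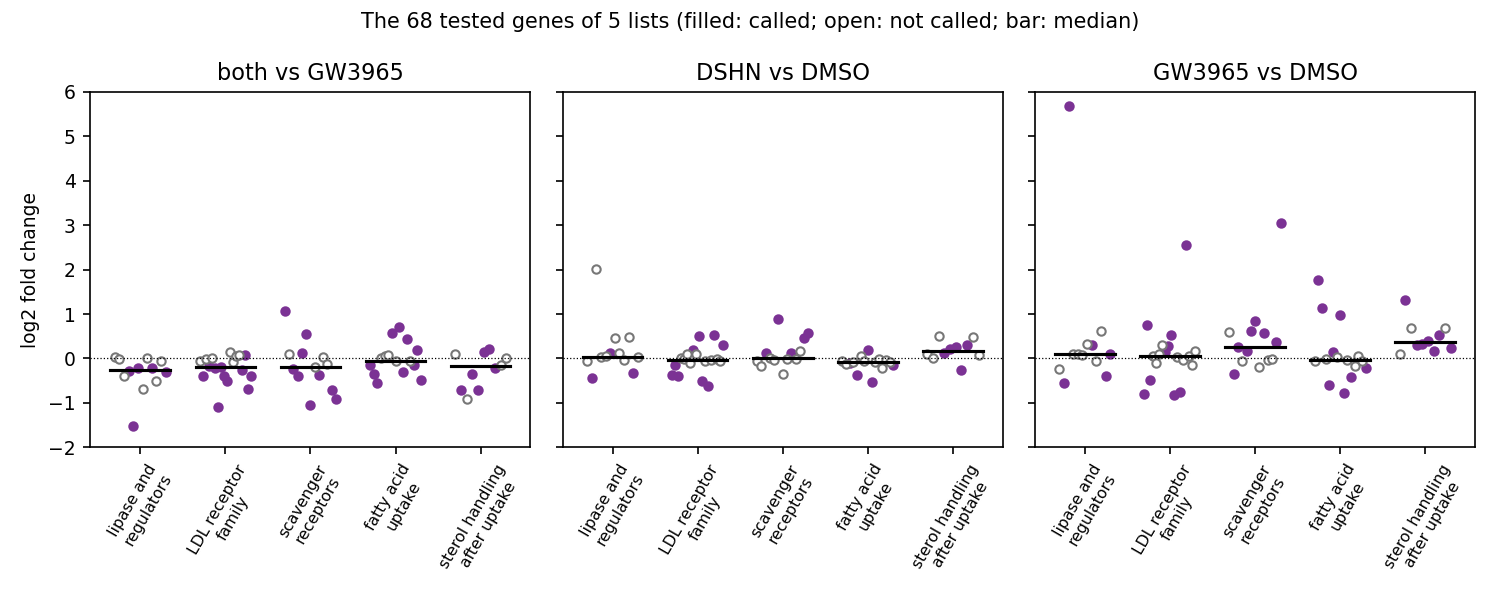
Log2 fold changes (vertical axis) of the 68 tested pathway genes in 5 lists (horizontal axis) for the combination relative to GW3965, DSHN relative to DMSO and GW3965 relative to DMSO, with filled points for genes that passed and bars for list medians. The highest point is Apoc1, named after its values were seen, which has at most 29 counts in any library, and the 10 genes of sterol handling have a median of 0.37 with GW3965.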

How the data were processed

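RNA of 20 macrophage cultures was sequenced from Kapa Hyper Stranded mRNA libraries, per the labels' protocols. The authors deposited unnormalized read counts by GeneID (GRCm39, RefSeq annotation), made with featureCounts 2.0.0, per the file headers, without a strand option; STAR is named in the submitters' processing notes, and its version is not given in the sources used here. GeneIDs were named from a RefSeq table (44749 of 46318, with 0.474% of counts unnamed). Genes passing filterByExpr were fitted in edgeR 4.0.16 (R 4.3.3) by quasi-likelihood with TMM scaling, 1 mean per treatment. P-values were adjusted within each of 6 contrasts over 13307 genes, and genes with an adjusted p under 0.05 were called. TPM used the files' exon lengths. Library totals were 16855029 to 23796561 counts, and the biological coefficient of variation was 0.0536.

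The members, lists and tests were chosen with earlier results of these data known. Named pathway genes were the 3 called with the smallest adjusted p per direction and contrast, and always Gpihbp1, Lmf1, Angptl4, Apoc2, Lrp8, Marco, Olr1, Mylip and Lipa; of those so chosen, the text gives the contrasts where a result turns on them. Some genes that the rule names are not reported here. Genes most like a member were the 5 (Lpl) or 3 highest by Pearson's r of log2 CPM (prior count 2), without the length correction.

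The members' changes and the counts of called genes were also computed with DESeq2 1.42.0, limma 3.58.1 voom, size factors of DESeq2, scaling to total counts, another filter (none, or 100 counts with 1 CPM in 5 libraries), a fit of the contrasted groups alone, and a replicate block. A length correction used per-library offsets from natural splines (5 degrees of freedom) of log2 exon length, and a version with genomic span was added after the data were seen. Each library was left out in turn.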

Additional observations from a re-analysis of the deposited data

Results flagged for a closer look

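In the DSHN group, replicate 1 had 2990 CPM of Lpl, apart from the other 4 libraries at 2629 to 2715 CPM, further than Dixon's criterion allows (0.71 for 5 samples). Chance flags about 1 in 20 groups, and 24 groups were looked at. Without that library the Lpl difference between DSHN and DMSO was -1.0018 on the log2 scale, and with it -0.96.

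The DSHN effect differed with and without GW3965 for 4 receptors by the interaction term of edgeR's quasi-likelihood fit. The difference, with minus without, was -1.09 for Lrp1, -0.72 for Vldlr, -0.19 for Scarb1 and 0.32 for Msr1 on the log2 scale, where 50.2% of all tested genes passed. For Scarb1 this passed with neither total count scaling nor the correction for length and span.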

How the results depend on the processing

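DESeq2 size factors, DESeq2, limma voom, the stricter filter and the fit of only the groups of a contrast changed no call of the 5 receptors and no called direction. With total counts only, 5 of 5 receptors passed for GW3965 relative to DMSO, since Cd36 (-0.12) and Msr1 (-0.17) also passed. Of all genes 47.1% passed there. With no filter, Msr1 passed for GW3965 (-0.11) and for the combination (-0.12) relative to DMSO. Leaving out 1 library kept 3 to 4 of 5 receptors called for GW3965 relative to DMSO, where 42.1% to 46.4% of all genes passed. For the combination relative to DMSO it kept 3 to 4, where 61.6% to 63.4% of all genes passed. For DSHN relative to DMSO it kept 2 to 3, where 23.3% to 28.9% of all genes passed. Reversals past the threshold, or of a called value, came under corrections for length. In the combination relative to DMSO, Vldlr was 0.0344 with exon length and 0.0332 with the block added, and Msr1 was 0.21 with length and span and 0.13 with length and block. Relative to GW3965, Msr1 was 0.24 with exon length, 0.31 with span and 0.24 with the block added. Relative to DSHN, Cd36 was 0.17 with span. The uncalled Msr1 value relative to GW3965, -0.0014, was also above 0 with the stricter filter (0.01), with the groups of the contrast alone (0.003) and with total counts (0.05), and without 1 library ranged from -0.04 to 0.06. The cause was not tested.

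Equal replicate numbers were not taken to pair the samples, since that needed every same-numbered pair to correlate above 0.1 in deviations from group means. Of 30 such pairs 10 did (median 0.04), as did 20 of 120 with different numbers (median -0.01), and 9 of 20 libraries were closest to their own number. With a replicate block, Lrp1 in the combination relative to GW3965 was -1.17, and the block moved Msr1 past the threshold for the combination (-0.12, adjusted p = 0.0306 by edgeR's quasi-likelihood test) and for GW3965 (-0.12, adjusted p = 0.0431) relative to DMSO. With the block and the length correction, Vldlr also passed for DSHN relative to DMSO (0.21, adjusted p = 0.0386). At the lowest level, Vldlr rested on 156 to 296 counts per library, which limits its precision most.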
